A study of Mus musculus with 3 samples.

Results

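The GADD45 stress proteins, the CIP/KIP inhibitors of cyclin-dependent kinases (CDKs) and a set of p53 axis genes were followed in R1 mouse embryonic stem cells. The genes were chosen by symbol, with earlier results of these data known: Gadd45a, Gadd45b, Gadd45g, Cdkn1a, Cdkn1b, Cdkn1c, Mdm2, Ccng1, Zmat3 and Trp53. All probe sets that the platform annotation pairs with 1 of these 10 genes were taken, which gave 17 of the 45101 probe sets on the array, for 9 of the 10 genes. Trp53, which encodes p53 itself, was paired with no probe set in the annotation used and was not analysed here.

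R1 is an established line of pluripotent cells, and the cultures were undifferentiated by their labels. One culture received 20 ng/ml of BMP4, another received 100 ng/ml of noggin, a secreted protein that binds BMPs, both for 4 h, and the third was left untreated. The labels used here state no feeder layer, medium or passage for them. Each condition was measured on 1 Affymetrix array of total RNA, 3 arrays in all, so no value has a replicate error, no test was possible, and the differences below compare arrays and not conditions with their spread. Values are log2 expression values from RMA, and a difference of 1 on this scale is a 2-fold difference.

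GADD45 proteins are small acidic proteins induced by growth arrest and DNA damage. They bind the kinase MAP3K4 upstream of p38 and JNK, and also PCNA, p21 and CDK1. The CIP/KIP proteins p21 (Cdkn1a), p27 (Cdkn1b) and p57 (Cdkn1c) bind cyclin-CDK complexes and slow entry into S phase. p53 is a transcription factor that is stabilised by DNA damage. Cdkn1a, Gadd45a, Ccng1, Zmat3 and Mdm2 are among its established targets, and MDM2 in turn marks p53 for degradation. Mouse embryonic stem cells cycle rapidly with a short G1 phase and are known for low CDK inhibitor activity. In epithelial and other cells, Gadd45b is known as an early target of TGF-beta family signalling and of NF-kB.

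The promoters of the 3 Gadd45 genes are shown because BMP4 minus untreated was unlike among these paralogues, by the brightest probe set of each. The 3 probe sets of Gadd45b were discordant, at 0.66, 0.00 and 0.24, beside 0.22 for Gadd45a. A Cdkn1a promoter is shown as the window with the most matches to the p53 half-site consensus among those of the members. Each line gives the 250 bases before an annotated transcription start, 5′ to 3′ on the strand of the gene, from the RefSeq annotation of mouse build GRCm38.p6. The windows are chr6:67037408-67037657 (minus strand) for Gadd45a, chr10:80929841-80930090 (plus strand) for Gadd45b, chr13:51846425-51846674 (plus strand) for Gadd45g, and chr17:29090729-29090978 (plus strand) for the more upstream of the 2 Cdkn1a starts listed. Capitals mark every match, on either strand, to CAGAC and GGCGCC (letters bound by SMAD proteins), to CCAAT, to the TATAAA box or the p53 half-site consensus.
Gadd45a: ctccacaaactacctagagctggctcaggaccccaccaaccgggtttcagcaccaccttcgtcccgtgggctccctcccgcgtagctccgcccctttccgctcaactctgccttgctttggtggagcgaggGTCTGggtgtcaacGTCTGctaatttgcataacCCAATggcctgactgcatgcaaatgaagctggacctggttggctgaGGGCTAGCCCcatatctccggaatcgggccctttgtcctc
Gadd45b: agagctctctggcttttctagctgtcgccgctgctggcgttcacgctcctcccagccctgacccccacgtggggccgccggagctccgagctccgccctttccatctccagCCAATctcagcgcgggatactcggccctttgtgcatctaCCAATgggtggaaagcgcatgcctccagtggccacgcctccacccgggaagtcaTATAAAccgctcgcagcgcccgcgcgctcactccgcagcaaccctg
Gadd45g: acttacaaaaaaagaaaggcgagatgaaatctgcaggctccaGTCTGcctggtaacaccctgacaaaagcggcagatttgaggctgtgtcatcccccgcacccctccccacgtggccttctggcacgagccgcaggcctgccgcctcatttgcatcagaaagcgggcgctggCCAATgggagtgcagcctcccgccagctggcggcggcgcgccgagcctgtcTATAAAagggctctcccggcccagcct
Cdkn1a: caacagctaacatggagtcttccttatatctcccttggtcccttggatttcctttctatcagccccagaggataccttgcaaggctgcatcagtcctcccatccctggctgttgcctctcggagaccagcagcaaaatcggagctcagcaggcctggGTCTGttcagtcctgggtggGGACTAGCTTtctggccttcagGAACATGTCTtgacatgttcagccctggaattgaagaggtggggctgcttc

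The Gadd45b window held TATAAA at positions −46 to −41 from the start and CCAAT at −139 to −135 and at −100 to −96, and no match to CAGAC, to GGCGCC or to the p53 half-site. The Gadd45a window held CAGAC on the opposite strand at −119 to −115 and at −105 to −101, CCAAT at −86 to −82, and a p53 half-site match at −40 to −31, with no TATAAA. The Gadd45g window held CAGAC on the opposite strand at −208 to −204, CCAAT at −78 to −74 and TATAAA at −27 to −22. In the Cdkn1a window, p53 half-site matches lay at −73 to −64 and at −51 to −42, and CAGAC lay on the opposite strand at −93 to −89. Of 32851 windows of this length in the annotation, 42.2% held CAGAC, 33.8% CCAAT, 12.4% TATAAA, 9.59% GGCGCC and 7.13% a p53 half-site. Windows were found for 7 of the 9 measured genes. The other Cdkn1a window held no p53 half-site match, and those of Mdm2 and Ccng1 held 1 each. GGCGCC occurred in the window of 1 of the 7, that of Cdkn1b, at −104 to −99 and at −45 to −40. A match describes letters in a window, and binding was not measured.

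A floor was set at 3.44, the median over the whole table. All 9 measured genes had at least 1 probe set above it, and 15 of the 17 probe sets were above the floor. Where a gene had several probe sets, the one with the highest mean stood for it, and for the members every other one is given beside it. On the median probe set the arrays were alike, at 3.45 with BMP4, 3.43 with noggin and 3.45 without treatment. The BMP response served as a check of the labels. Id1 measured 11.54 with BMP4, 8.59 with noggin and 8.78 without treatment, and Id3 measured 9.16, 5.31 and 5.58 in the same order of arrays. All 10 pluripotent cell markers were above the floor on every array, with medians of 11.16, 11.04 and 11.08 with BMP4, with noggin and without treatment. For the 24 probe sets of the poly-A spikes, control transcripts mixed into the RNA, BMP4 minus untreated had a median of −0.63 and noggin minus untreated a median of −0.18, with 24 and 23 of them below 0. The part of that difference in the values below was not tested. In culture RNA, fewer cells with a transcript and less of it per cell cannot be told apart.

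**Figure D1:**
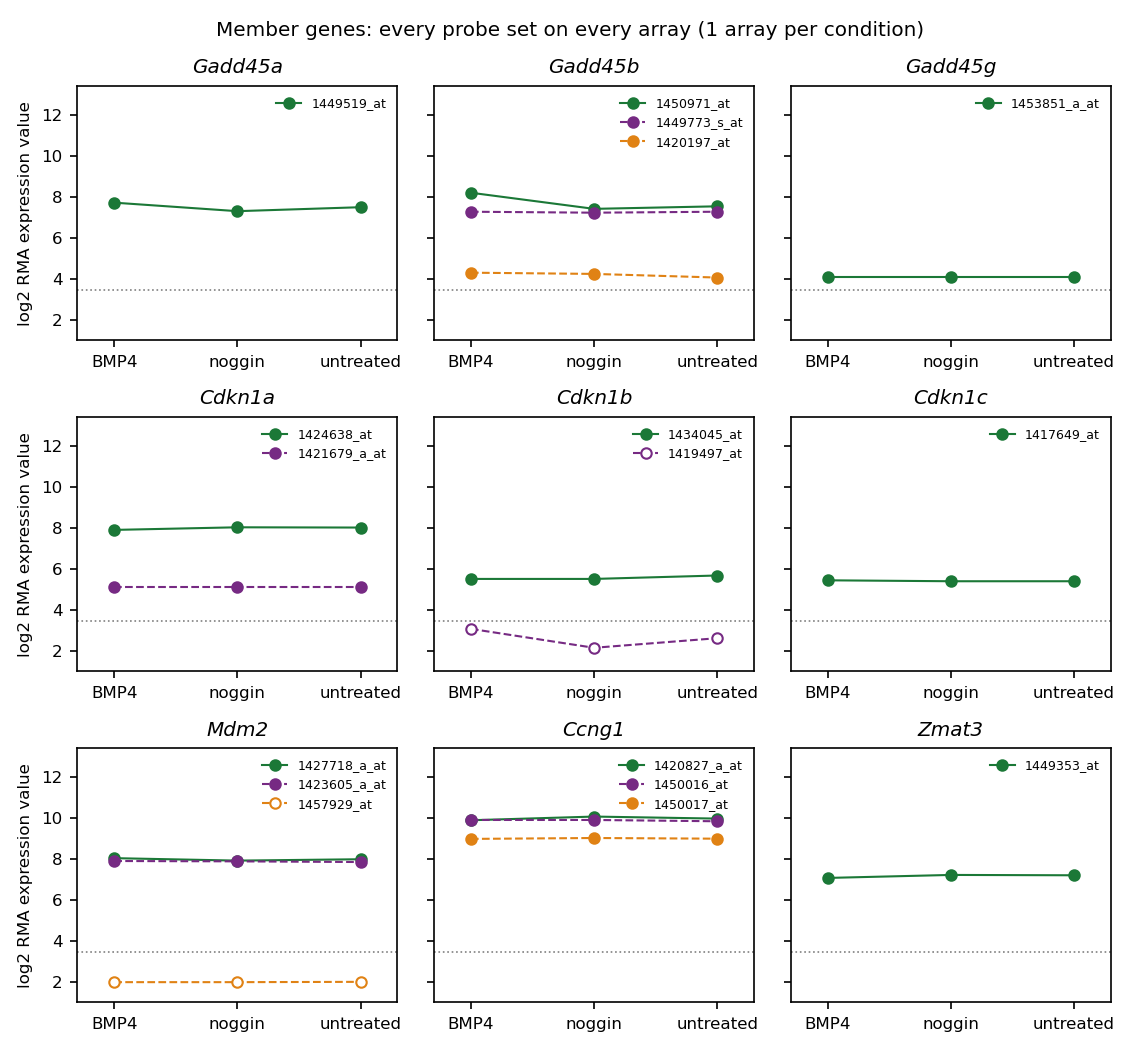
Log2 RMA expression value (vertical axis) of every probe set of the 9 measured genes on the BMP4, noggin and untreated arrays (horizontal axis, 1 array each). Solid lines join the values of the probe set that stands for the gene, dashed lines those of its other probe sets, open circles mark probe sets below the floor on all 3 arrays, and the dotted line is the floor of 3.44; among the solid lines, that of Gadd45b has the largest step, at 8.20 with BMP4, 7.41 with noggin and 7.54 without treatment.

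The Gadd45 genes were compared first. Gadd45b measured 8.20 with BMP4, 7.41 with noggin and 7.54 without treatment on probe set 1450971_at. The BMP4 array was highest, the noggin array lay just below the untreated one, and the difference of BMP4 minus untreated was 0.66, or 1.58-fold. Of the 11594 genes above the floor, 20, Gadd45b included, had a difference of at least this size in this direction. Noggin minus untreated was −0.12, and BMP4 minus noggin was 0.79, or 1.72-fold.

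The other probe sets of Gadd45b did not show that difference. Probe set 1449773_s_at measured 7.27 with BMP4, 7.23 with noggin and 7.27 without treatment, so the BMP4 and untreated values were equal to 6 decimals. Probe set 1420197_at measured 4.30 with BMP4, 4.24 with noggin and 4.06 without treatment, and there both treated arrays were above the untreated one, by 0.24 and 0.18. Across all genes with several probe sets above the floor, the differences of BMP4 minus untreated had a within-gene SD of 0.13 (13666 probe sets of 5139 genes). The 1.5-fold difference of Gadd45b therefore rests on 1 of its 3 probe sets, and the mean over the 3 was 0.30.

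Gadd45a, the classical p53-responsive member, had 1 probe set, which measured 7.71 with BMP4, 7.30 with noggin and 7.49 without treatment. Its value was highest with BMP4 and lowest with noggin. The difference was 0.22 for BMP4 minus untreated and −0.19 for noggin minus untreated, so BMP4 minus noggin was 0.42, or 1.33-fold. Other genes reached these sizes too. With Gadd45a included, 263 of the 11594 genes above the floor (2.27%) were at least as much higher with BMP4. With noggin, 497 (4.29%) were at least as much lower. Fewer genes, 120, were at least as much higher with BMP4 than with noggin.

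Gadd45g, known from neurogenesis and cell cycle exit in other settings, measured 4.09 on all 3 arrays, equal to 6 decimals. Exact equality is frequent after the median polish step of RMA, which summarises the probes of a set, and 24.3% of the probe sets above the floor had it on all 3 arrays. Small differences in Gadd45g would therefore not be visible. On the brightest probe set of each, Gadd45b, Gadd45a and Gadd45g thus had differences of 0.66, 0.22 and 0.00 with BMP4. With noggin these differences were −0.12, −0.19 and 0.00, and both comparisons share the untreated array. The mean over the 3 probe sets of Gadd45b was 0.30 with BMP4 and 0.0020 with noggin.

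**Figure D2:**
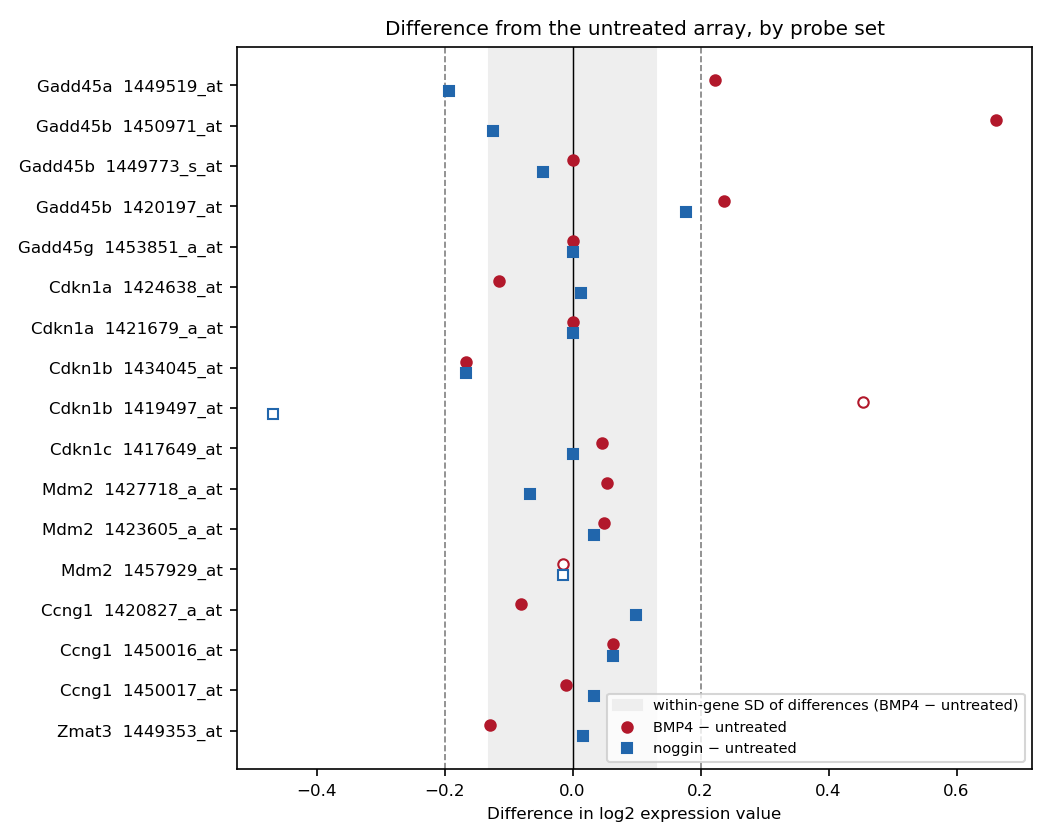
Difference from the untreated array in log2 expression value (horizontal axis) for each of the 17 probe sets (rows, with gene and probe set), as circles for BMP4 and squares for noggin. Dashed lines stand at ±0.2, the grey band is ±0.13, the within-gene SD of BMP4 minus untreated, and open symbols are probe sets below the floor; probe sets of Gadd45b lie at 0.66, 0.00 and 0.24 with BMP4, and the dim probe set of Cdkn1b lies at 0.45 and −0.47.

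The CIP/KIP inhibitors stayed within 0.2 of the untreated array on every probe set above the floor. Cdkn1a measured 7.90 with BMP4, 8.02 with noggin and 8.01 without treatment. The BMP4 array was lowest, by −0.11 from untreated, which is within the spread among probe sets of a gene. Its second probe set, 1421679_a_at, measured 5.13 on all 3 arrays, equal to 6 decimals. Cdkn1c, an imprinted gene, measured 5.44 with BMP4 and 5.40 both with noggin and without treatment, so its largest difference was 0.05.

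Cdkn1b gave discordant probe sets. The brighter one, 1434045_at, measured 5.51 with BMP4, 5.51 with noggin and 5.67 without treatment, and both treated arrays were lower by the same −0.17. The other, 1419497_at, measured 3.07 with BMP4, 2.15 with noggin and 2.62 without treatment, and was below the floor on all 3 arrays. There BMP4 was higher by 0.45 and noggin lower by −0.47, and BMP4 minus noggin was 0.92, the largest difference of any of the 17 probe sets. Among 15076 probe sets with a mean level below the floor, the 95th percentile of the size of the difference was 0.23 for BMP4 minus untreated and 0.45 each for noggin minus untreated and BMP4 minus noggin. The lower end of the scale also differed between arrays, with a 5th percentile of all values of 1.82 with BMP4, 1.60 with noggin and 1.82 without treatment. The part of that shift in the dim Cdkn1b values was not tested.

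The p53 regulator gene Mdm2 differed by less than 0.1 from the untreated array. Probe set 1427718_a_at measured 8.03 with BMP4, 7.91 with noggin and 7.98 without treatment, with differences of 0.05 and −0.07. Probe set 1423605_a_at measured 7.89 with BMP4, 7.88 with noggin and 7.84 without treatment. With noggin the signs of these probe sets were opposite, at −0.07 and 0.03. The remaining one, 1457929_at, was below the floor at 1.99 with BMP4 and with noggin, each −0.01 from untreated.

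Ccng1 encodes cyclin G1, a p53 target that recruits a phosphatase to MDM2. Its probe set 1420827_a_at measured 9.88 with BMP4, 10.06 with noggin and 9.96 without treatment, the lowest value with BMP4 and the highest with noggin. The BMP4 minus noggin difference was −0.18. Its probe set 1450016_at measured 9.89 with BMP4, 9.89 with noggin and 9.83 without treatment, and 1450017_at measured 8.97 with BMP4, 9.01 with noggin and 8.98 without treatment. The difference with BMP4 thus ran from −0.08 to 0.06 over the 3 probe sets, within their usual spread. With noggin all 3 were higher, by 0.03 to 0.10.

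Zmat3, a p53-induced zinc finger protein that binds RNA, had 1 probe set. It measured 7.07 with BMP4, 7.21 with noggin and 7.20 without treatment. BMP4 was lowest, by −0.13, and 1132 of the 11594 genes were at least as much lower with BMP4.

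The members were then counted at fixed sizes, beside the share of all 11594 genes at the same size. With BMP4, 2 of the 9 genes, Gadd45a and Gadd45b, were at least 0.2 (1.15-fold) higher than without treatment, where the share over all genes was 2.68%, and 0 were at least 0.2 lower, where it was 4.28%. At 1.5-fold, 1 of the 9, Gadd45b, was higher against 0.224% of all genes, and 0 were lower against 0.0518%. With noggin, 0 of the 9 were at least 0.2 higher than without treatment, where 2.13% of all genes were, and 0 were at least 0.2 lower, where 4.03% were. At 1.5-fold, 0 were higher or lower with noggin, against 0.00863% and 0.069% of all genes.

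Between the BMP4 and noggin arrays, whose difference follows from the comparisons above, 2 of the 9 genes were at least 0.2 higher with BMP4, again Gadd45a and Gadd45b, against 5.9% of all genes. None of the 9 was at least 0.2 lower, against 5.98%. At 1.5-fold, 1, Gadd45b, was higher against 0.38%, and 0 were lower against 0.138%. By probe set, 3 of the 15 above the floor differed by at least 0.2 in either direction for BMP4 minus untreated, against 9.13% of all 20122 such probe sets. The count was 0 of 15 for noggin minus untreated, against 7.9%, and 2 of 15 for BMP4 minus noggin, against 14.6%. The 3 probe sets were 2 of Gadd45b and that of Gadd45a. The members were chosen with earlier results of these data known, so the shares over all genes are not an independent background for these counts. With 9 genes so chosen, a count of 1 or 2 does not set them apart from other genes.

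The median difference over the 9 genes was 0.00 for BMP4 minus untreated, noggin minus untreated and BMP4 minus noggin, and so was the median over all genes. With BMP4, 4 members were above 0, 4 below and 1 equal. With noggin, 3 were above 0, 4 below and 2 equal. Of the p53 targets among them, Gadd45a was at 0.22 with BMP4. Mdm2 at 0.05, Cdkn1a at −0.11, Ccng1 at −0.08 and Zmat3 at −0.13 had sizes within the within-gene SD of 0.13. That SD describes probe sets of 1 gene on the same arrays, and not the spread between arrays or cultures. With 1 array per condition, no direction can be read as an effect of BMP4 for any of these p53 targets.

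**Figure D3:**
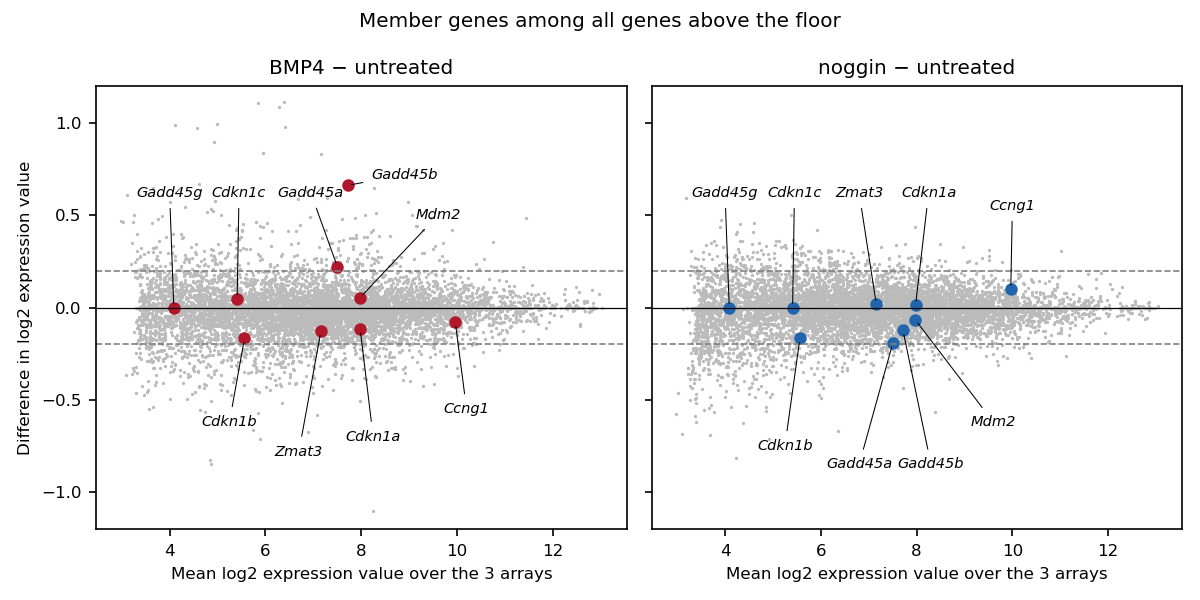
Difference from the untreated array in log2 expression value (vertical axis) against the mean log2 expression value over the 3 arrays (horizontal axis) for the 11594 genes above the floor (grey) and the 9 measured members (coloured and labelled), with BMP4 on the left and noggin on the right. Dashed lines stand at ±0.2, and 8 genes with BMP4 lie beyond the axis limit of 1.2; Gadd45b, at 0.66, lies outside the grey bulk with BMP4, and no member lies outside the dashed lines with noggin.

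Other genes of the same pathways were read from lists of p53 targets, p53 regulators, INK4 inhibitors, GADD45 partners and CDK inhibitor partners, 85 genes of which 77 were above the floor. With BMP4, 2 of the 77 were at least 0.2 higher than without treatment and 2 lower, where 2.68% and 4.28% of all genes were. With noggin, 1 was higher and 1 lower, where 2.13% and 4.03% of all genes were. Between BMP4 and noggin, 2 were higher and 5 lower with BMP4, beside 5.9% and 5.98% of all genes. No gene of the 77 reached 1.5-fold, which few genes of the array did. Each comparison had a median of 0.00 over the 77. These counts are near or below the shares over all genes and set the 77 apart in no comparison. The same shares are the background of the smaller lists that follow. From these lists, Sfn, Trp53inp1, Apaf1, Prkdc, Atr and Tet1 are given by their brightest probe set alone, and no other was compared.

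Of 36 further p53 target genes, 32 were above the floor. Beside 2.68% and 4.28% of all genes with BMP4, 0 of the 32 were at least 0.2 higher and 1 was lower: Sfn, which encodes the 14-3-3 sigma protein, measured 6.74 with BMP4, 6.82 with noggin and 7.001 without treatment. With noggin, Trp53inp1, a stress-induced protein that promotes p53 phosphorylation, was 0.20 higher than without treatment, and the DNA repair gene Ddb2 was at −0.22. Between BMP4 and noggin 1 of the 32, Ddb2, was higher with BMP4, and 2, Trp53inp1 at −0.27 and Apaf1 at −0.22, were lower. Ddb2 measured 5.61 with BMP4, 5.20 with noggin and 5.43 without treatment, an order like that of Gadd45a, but its second probe set measured 5.22 with BMP4, 5.17 with noggin and 5.22 without treatment. The apoptosis gene Bbc3 (PUMA) measured 6.45 with BMP4, 6.48 with noggin and 6.39 without treatment, and Pmaip1 (NOXA) measured 7.56 on all 3 arrays. Bax was paired with no probe set of its own and was not analysed here.

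Of 12 further p53 family members and regulators above the floor, none reached 0.2 from untreated with BMP4 or noggin, and with 12 genes and shares of 2.13% to 4.28% over all genes a count of 0 says nothing about the list. Between BMP4 and noggin, 2 of the 12 were at least 0.2 lower with BMP4, the DNA damage kinase genes Prkdc at −0.26 and Atr at −0.25, beside 5.98% of all genes. The list includes Mdm4, a relative of Mdm2 whose protein holds p53 inactive, at 7.09 with BMP4 and 7.06 with noggin, which were 0.09 and 0.06 above untreated. The 4 INK4 inhibitors, which block CDK4 and CDK6, were also within 0.2: Cdkn2a measured 4.23 with BMP4, 4.19 with noggin and 4.23 without treatment, and Cdkn2d measured 6.56 with BMP4, 6.47 with noggin and 6.57 without treatment.

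Among 13 GADD45 partners and stress kinase genes above the floor, Tet1 was at least 0.2 higher with BMP4 and Map3k4 lower, beside 2.68% and 4.28% of all genes, and 0 passed 0.2 with noggin. Map3k4, whose kinase is activated by GADD45 binding, measured 6.89 with BMP4, 7.33 with noggin and 7.31 without treatment on its brightest probe set, a difference of −0.42 with BMP4. Its other 3 probe sets gave −0.04, 0.00 and 0.00, so that value too rests on 1 probe set of several. Tet1, an enzyme that oxidises methylcytosine, measured 9.84 with BMP4, 9.67 with noggin and 9.56 without treatment. Pcna, the sliding clamp bound by p21 and GADD45 proteins, measured 11.93 with BMP4, 11.87 with noggin and 11.88 without treatment.

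Among 16 partners of the CDK inhibitors and genes of their turnover, 1 was at least 0.2 higher with BMP4 and 0 lower, beside 2.68% and 4.28% of all genes, and 0 passed 0.2 with noggin, beside 2.13% and 4.03%. The gene with BMP4 was Skp2, which encodes the ubiquitin ligase subunit that marks p27 for degradation. It measured 8.38 with BMP4, 7.99 with noggin and 8.002 without treatment, a difference of 0.38. Skp2 had 6 probe sets above the floor, and with BMP4 the other 5 gave 0.31, 0.21, 0.19, 0.00 and −0.02, so 4 of the 6 were higher by at least 0.19. For the same 4, noggin minus untreated ran from −0.28 to −0.01.

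**Figure D4:**
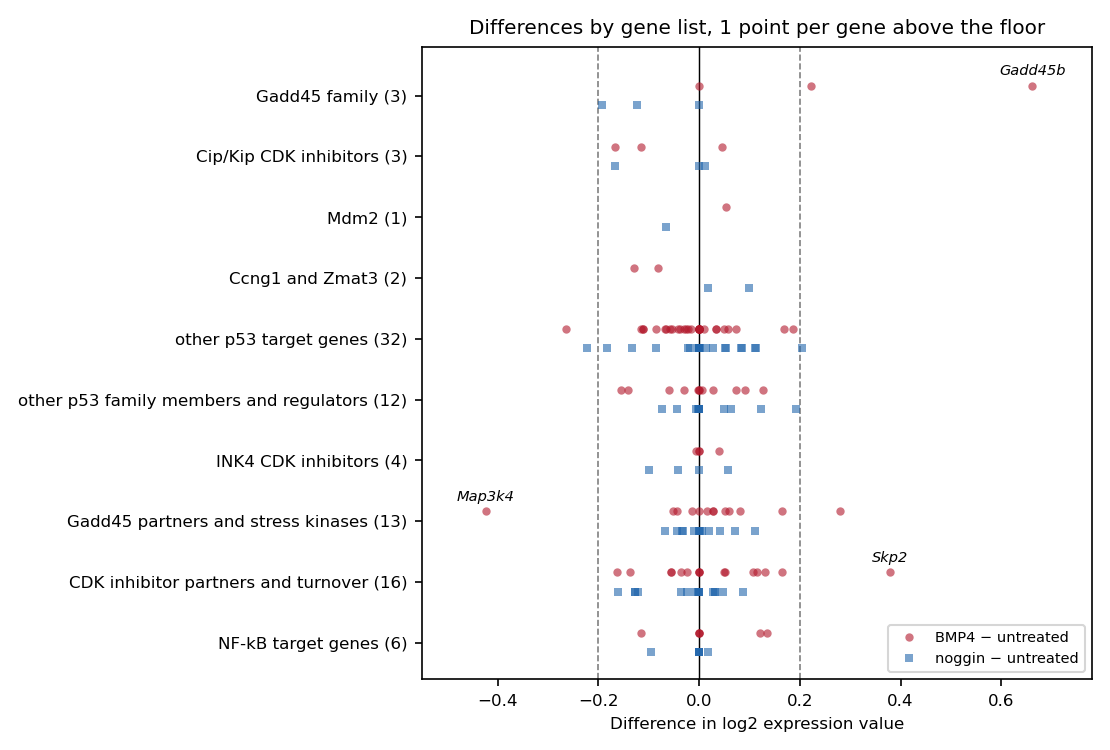
Difference from the untreated array in log2 expression value (horizontal axis), 1 point per gene above the floor, for the member groups (top 4 rows) and the other pathway lists (lower rows, number of genes in brackets), as circles for BMP4 and squares for noggin. Dashed lines stand at ±0.2 and genes beyond ±0.3 with BMP4 are named; most points lie between the dashed lines, and Gadd45b (0.66), Skp2 (0.38) and Map3k4 (−0.42) lie furthest out.

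The genes nearest to Gadd45b and Gadd45a in their differences from the untreated array were listed, as a description over 3 arrays. The 5 nearest to Gadd45b, by distance in the plane of both differences, were Srpk2, Lmo2, Smad6, Edn2 and Rbm25, at distances of 0.06 to 0.16, and 11 genes lay within 0.2. Lmo2, Smad6 and Edn2 had 1 probe set each, and the probe sets of Srpk2 and Rbm25 were discordant. With BMP4 a second probe set of Srpk2 was also at 0.63, but its other 4 ran from −0.13 to 0.00. The other 4 of Rbm25 above the floor ran from 0.00 to 0.42. Smad6, the inhibitory SMAD gene of the BMP pathway, measured 5.07 with BMP4, 4.40 with noggin and 4.40 without treatment. Edn2 and Lmo2 were near or below the floor without BMP4, at 2.91 and 3.45 on the untreated array. The 5 nearest to Gadd45a were Terf2ip, Uqcc1, Kif21a, P4ha2 and Snrnp48, all within 0.03. With BMP4, other probe sets above the floor were at −0.03 for Terf2ip, 0.09 for Uqcc1 and 0.16 for Kif21a. Those of Snrnp48 ran from −0.12 to 0.09. In all, 557 genes lay within 0.2 of Gadd45a. That radius is close to the size of its own differences, 0.22 and −0.19, and takes in genes with much smaller ones. The count therefore does not show how common the pattern is.

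Known BMP target genes give a scale for the difference of Gadd45b. Id2 differed by 4.10, Id3 by 3.58, Id1 by 2.76 and Smad7 by 0.34 from untreated with BMP4, and Smad6, at 0.67, was closest to Gadd45b. With noggin the same genes differed by −0.49 for Id2, −0.26 for Id3, −0.19 for Id1, 0.16 for Smad7 and 0.00 for Smad6, beside −0.12 for Gadd45b. A second probe set of Smad7 was at 0.13 with BMP4 and at −0.19 with noggin, opposite in sign to the first with noggin.

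Markers of other cell types were read beside these values. Of 10 fibroblast markers, 6 were above the floor with BMP4, 7 with noggin and 6 without treatment, with a median level of 3.88, 3.96 and 3.96. S100a4 was at −0.55 with BMP4 and −0.31 with noggin, and Postn at −0.32 with BMP4 and 0.22 with noggin. Postn was below the floor with BMP4 and without treatment, at 3.00 and 3.32, and above it only with noggin, at 3.55. The other fibroblast markers above the floor were within 0.2 of untreated. Among them, Vim, at 10.14 without treatment, was at 0.01 with BMP4 and 0.02 with noggin, and Fbln1 and Dcn were at 0.00 with both. Of 8 endoderm markers, 5 were above the floor with BMP4, 4 with noggin and 5 without treatment. That count turned on Ttr, at 3.448 with BMP4 and without treatment and 3.440, the floor, with noggin. Sox7, at 0.99, and Gata6, at 0.52, were higher with BMP4. The others above the floor were at 0.08 for Sox17 and 0.00 for Dab2 and Ttr with BMP4. Markers of mesoderm, trophoblast and neural cells had medians between 3.55 and 4.58 on all arrays. Of the 12 in these lists above the floor, 4 were at least 0.2 from untreated with BMP4: Tfap2c at 0.38, Mixl1 at 0.23, Pax6 at −0.37 and Ncam1 at −0.42. With noggin 1 of the 12 was, Ncam1 at −0.35. Over all genes, 2.68% were at least 0.2 higher and 4.28% at least 0.2 lower with BMP4. The same shares with noggin were 2.13% and 4.03%. Mixl1 measured 3.67 with BMP4 and 3.44, the floor, on the other arrays. It thus passed the floor only through the BMP4 array. Pax6 was also near the floor, at 3.48 with BMP4 and 3.84 without treatment. Of the 10 pluripotent cell markers, 1 was at least 0.2 higher with BMP4, Pou5f1 at 0.22, and 0 were at least 0.2 lower. The median of BMP4 minus untreated over these 10 markers was 0.03. The part of these differences in the values of the Gadd45 genes was not tested.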

How the data were processed

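Total RNA of 3 cultures was hybridised to 3 Affymetrix arrays. The authors deposited a table with 1 log2 value for each probe set and array. The submitters' processing notes name RMA; its version and settings are not given in the sources used here. RMA corrects background, equalises the distributions of the arrays and summarises probes by median polish, which hides a general shift in RNA content and returns many exactly equal values. Values were used as deposited.

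Gene names came from the annotation of the platform, in which 34945 probe sets were paired with 1 gene (18193 genes), 932 with several and 9160 with none, and 64 were controls. Entrez identifiers of 34741 matched RefSeq, which changed 0 symbols. A gene was represented by its probe set with the highest mean, and kept if its maximum exceeded the floor of 3.44, which left 11594 genes (63.7%). Differences were counted at 0.2 and at 1.5-fold. With 1 array per condition there is no test, SD or p-value, and the number of arrays limits the precision. The 7 alternatives were another probe set rule (mean, or plain suffix alone), floor (none, or the 75th percentile), median centring, loess (span 0.3) and a limit of 0.3. The arithmetic was tested on simulated data.

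The members and gene lists were chosen with earlier results of these data known. Named were all members, pathway genes past 0.3 in any comparison, fixed reference genes, the 5 nearest genes in pattern, and others after their values were seen (Sfn, Trp53inp1, Apaf1, Prkdc, Atr, Tet1, Pmaip1, Mdm4, Cdkn2a, Cdkn2d, Nfkbia, markers). Python 3.11.15, pandas 2.3.3 and statsmodels 0.14.6 were used.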

Additional observations from a re-analysis of the deposited data

How the results depend on the processing

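Gadd45a and Gadd45b were the members at least 0.2 higher with BMP4 under both probe set rules, both floors, median centring and loess correction. This held against untreated and against noggin, where the mean rule added Cdkn1b. The floors, median centring and the plain-suffix rule left the values of both genes as they were, so these settings could not change the result. Gadd45a has 1 probe set, so the mean rule could not change its value either. After loess correction, BMP4 minus untreated was 0.23 for Gadd45a and 0.67 for Gadd45b. With a limit of 0.3, the count for BMP4 minus untreated was 1, Gadd45b, in place of 2. When a gene was given the mean of its probe sets, the count for noggin minus untreated was 1, Cdkn1b at −0.32, in place of 0, and for BMP4 minus noggin Cdkn1b joined at 0.46, since its second, dim probe set enters the mean. In that setting the BMP4 minus untreated difference of Gadd45b was 0.30 and its BMP4 minus noggin difference also 0.30, against 0.66 and 0.79 on its brightest probe set, and its noggin minus untreated difference was 0.0020, against −0.12, and Cdkn1b was at 0.14 for BMP4 minus untreated, against −0.17. With plain-suffix probe sets, Gadd45g and Mdm2 had none above the floor, and Ccng1 was at 0.06 in place of −0.08 for BMP4 minus untreated. With the higher floor 6 of the 9 genes were measured. No array could be left out, and with 1 array per condition neither the spread between cultures nor that between arrays can be estimated. No paired analysis was possible because no condition had a replicate.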

Other observations

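The NF-kB target genes Nfkbia, Tnfaip3, Relb, Nfkb2, Birc3 and Bcl3 were read because Gadd45b is a known target of NF-kB. With BMP4 and with noggin, 0 of the 6 were at least 0.2 from untreated on the brightest probe set, which with 6 genes and shares of 2.13% to 4.28% over all genes says nothing about the list. Between BMP4 and noggin 1 of the 6, Nfkbia at 0.23, was higher with BMP4, beside 5.9% of all genes. Nfkbia, which encodes the inhibitor of NF-kB and was chosen for mention after its values were seen, had 5 probe sets above the floor that all ran the same way. Its brightest one measured 8.99 with BMP4, 8.76 with noggin and 8.86 without treatment, and another, 1448306_at, measured 7.10 with BMP4, 6.65 with noggin and 6.74 without treatment. Over the 5 probe sets the difference ran from 0.13 to 0.36 for BMP4 minus untreated and from −0.23 to −0.09 for noggin minus untreated. Tnfaip3 and Bcl3 had equal values on the 3 arrays, at 3.93 and 7.93.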
